A study of Oryzias latipes with 6 samples.

Results

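Leukocyte marker genes were followed in the axial tissue of Japanese medaka (Oryzias latipes) larvae after a brief embryonic exposure to TCDD, the dioxin used as the reference agonist of the aryl hydrocarbon receptor. The members were taken by name from a fixed set of 9 symbols that are commonly used to read the leukocyte content of a tissue: ptprc, spi1, lcp1, coro1a, mpx, csf1r, csf1ra, mpeg1 and lyz. Of these symbols, 7 had a row in the authors' deposited table, and mpx had 2 copies, so that 8 of its 20459 genes are members. No row carried the symbol csf1r or mpeg1. Only 2 of the 8 members, ptprc and mpx (2 of 2), were tested by the authors. The other 6 have values and no test.

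The groups were 3 libraries from TCDD-exposed fish and 3 from DMSO-exposed fish, all of the Orange-red Hd-dR strain and 20 days post fertilization old. The exposure to 0.3 nM TCDD, or to 0.1% DMSO, lasted 1 h and began about 4 h after fertilization. Each RNA sample was a pool of 15 to 25 larvae, from which the spine was kept together with the muscle, dermis and fat around it, and the head and viscera were trimmed away. The authors deposited 1 value per gene and group, in FPKM (fragments scaled by transcript length and library size), so no value per library, no SD and no depth can be given.

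Leukocytes arise from blood stem cells and enter other tissues through the circulation or stay there as resident macrophages. They are few in muscle, skin and bone, so their transcripts make up a small part of all RNA in a bulk sample of such tissue. Some of their genes are made by nearly every leukocyte, such as the CD45 phosphatase gene ptprc, and others by one branch, such as the myeloperoxidase gene mpx of granulocytes or the colony-stimulating factor receptor genes of macrophages. TCDD acts through the aryl hydrocarbon receptor, which leukocytes also carry. In a bulk sample, more cells of a type and more RNA per cell cannot be told apart.

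The tissue carried the transcripts of its labelled parts. In the authors' deposited table the fast-muscle parvalbumin gene pvalb1 had 119442 FPKM in TCDD and 228225 FPKM in DMSO, the bone collagen gene col10a1 185 and 1363 FPKM, and the epidermal keratin gene krt5 3926 and 8037 FPKM. The adipocyte fatty acid binding protein gene fabp11a had 72.6 FPKM in TCDD and 82.4 FPKM in DMSO. The dioxin marker cyp1a had 3258 FPKM in TCDD and 27.7 FPKM in DMSO (q = 0.00105 in the authors' deposited table). The osteoblast transcription factor gene sp7 had 5.34 FPKM in TCDD and 34.4 FPKM in DMSO (q = 0.0411 in the authors' deposited table). The leukocyte markers lay at 0 to 43.1 FPKM in TCDD and 0 to 32.7 FPKM in DMSO.

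The 8 members differed widely in how they stood between the groups. The pan-leukocyte gene ptprc rose in TCDD, the tested myeloperoxidase copy mpx (2 of 2) had nearly equal values in both groups, and the cytoskeletal markers lcp1 and coro1a and the macrophage receptor gene csf1ra differed by at most 1.62-fold. A short SPI1 row and the other myeloperoxidase copy, mpx (1 of 2), had far larger values in TCDD than in DMSO but no test. No lysozyme (lyz) signal was listed in either group.

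**Figure D1:**
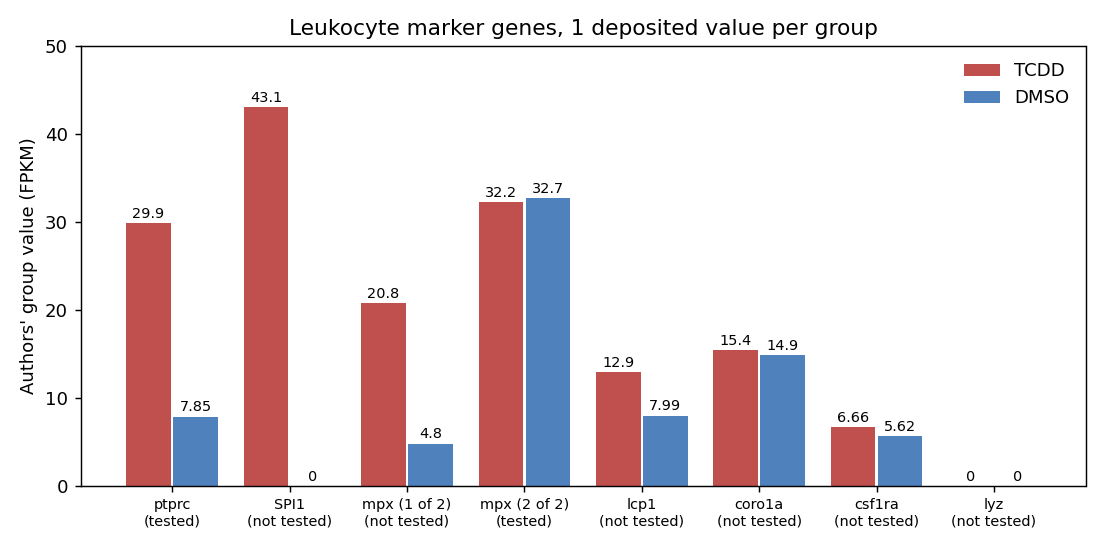
Authors' group value (FPKM, linear axis) of the 8 leukocyte marker genes, with the TCDD bar left of the DMSO bar for each gene; each bar is 1 deposited value and has no error. ptprc, SPI1 and mpx (1 of 2) stand higher in TCDD (29.9, 43.1 and 20.8 FPKM) than in DMSO (7.85, 0 and 4.80 FPKM), while mpx (2 of 2), coro1a and csf1ra have bars of nearly equal height.

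The gene ptprc encodes CD45, the receptor tyrosine phosphatase on the surface of leukocytes, which sets the activity of Src-family kinases in antigen receptor signalling. It lies on chromosome 4 at 15450420 to 15463385 (ENSORLG00000008808; the sources used here name no genome build). Its value was 29.9 FPKM in TCDD and 7.85 FPKM in DMSO. The fold change was 3.80, or 1.93 on the log2 scale, with a test statistic of 3.07, p = 5e-05 and q = 0.00105 in the authors' deposited table. That p is the smallest the authors' test gave, and 157 genes share it. Counting ptprc itself, 107 tested genes, or 3.28% of those above 0 in both groups, had a log2 fold change at or above that of ptprc.

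Of the 2 tested members, 1 was called higher and 0 lower at q under 0.05. Over all 3286 genes tested in the authors' deposited table, 10.7% were called higher in TCDD and 7.46% lower, or 18.2% in either direction. The larger of a tested gene's 2 values was 27.5 FPKM at its lowest, although 639 untested genes also reached that level. ptprc met it through its TCDD value alone, which from its DMSO value needs a difference of 3.50-fold. Among the 55 tested genes that had under 10 FPKM in DMSO, as ptprc did, 36.4% were called higher, so a gene tested in this way had to differ widely between the groups. The larger values of the untested members lcp1, coro1a, csf1ra and mpx (1 of 2) lay below that level, between 6.66 and 20.8 FPKM.

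Ratios between members do not depend on how the groups are scaled, and they differed from member to member. The ratio of ptprc to coro1a was 1.94 in TCDD and 0.529 in DMSO. To lcp1 it was 2.31 in TCDD and 0.983 in DMSO, and to csf1ra 4.49 in TCDD and 1.40 in DMSO. Against mpx (2 of 2) the ratio was 0.928 in TCDD and 0.240 in DMSO. Against mpx (1 of 2) it was lower in TCDD, at 1.44, than in DMSO, at 1.64, and the SPI1 row, listed at 0 in DMSO, gives no such ratio. In order of level, ptprc was number 3 among the 8 members in TCDD and number 4 in DMSO. It lay above 85.0% of all genes in TCDD and above 58.9% in DMSO. These ratios have no test, because each rests on 1 value per group.

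**Figure D2:**
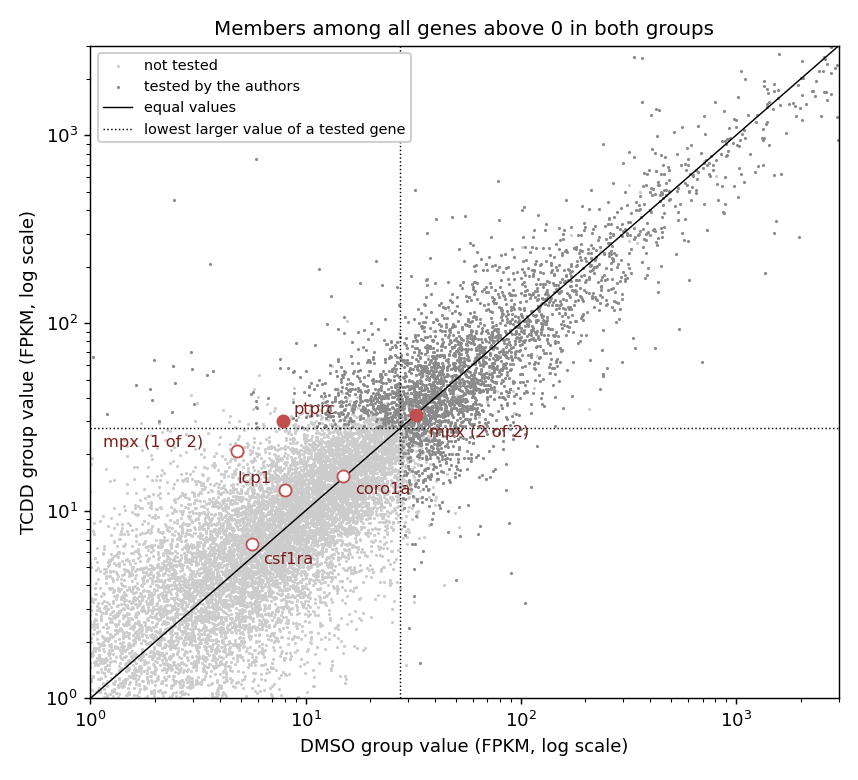
TCDD value against DMSO value (FPKM, both axes on a log scale) of every gene above 0 in both groups within the axis limits, with 6 members marked in red, filled where the authors tested them. ptprc lies just above the dotted line at 27.5 FPKM and left of the diagonal of equal values, mpx (2 of 2) lies on the diagonal, and lcp1, coro1a and csf1ra lie within the grey cloud of untested genes near it.

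The gene mpx encodes myeloperoxidase, the heme enzyme of granulocyte granules that turns hydrogen peroxide and chloride into hypochlorous acid, and in zebrafish it is the usual marker of neutrophils. The authors' deposited table lists 2 copies in a row on chromosome 12, which lie 2604 bp apart. They are mpx (1 of 2) at 14035447 to 14041207 and mpx (2 of 2) at 14043811 to 14049542. In the authors' deposited table mpx (2 of 2) had 32.2 FPKM in TCDD and 32.7 FPKM in DMSO (log2 fold change -0.02, q = 0.968). It was the most abundant member in DMSO and the second most abundant in TCDD. Its direction was not settled, since the log2 fold change was 0.23 when both groups were scaled to equal totals. It was 0.0115 with totals taken without the 10 most abundant genes, and -0.07 with the median of tested genes at 0. The neighbouring copy mpx (1 of 2) was not tested and had 20.8 FPKM in TCDD and 4.80 FPKM in DMSO, a ratio of 4.33. Among the 5121 untested genes that were above 0 in both groups and at 10 FPKM or more in 1 of them, 3.83% had at least 4 times the DMSO value in TCDD.

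The first copy made up 39.2% of the summed mpx value in TCDD and 12.8% in DMSO. The sum of both copies was 53.0 FPKM in TCDD and 37.5 FPKM in DMSO, a ratio of 1.41. No source used here says how the counting divided reads between neighbouring copies of 1 gene, so the value of each copy is uncertain. Next to them, the untested surfactant-protein-like gene sftpba had 9.11 FPKM in TCDD and 1.25 FPKM in DMSO, and lox, which encodes the collagen crosslinking enzyme lysyl oxidase, had 5.81 FPKM in TCDD and 13.2 FPKM in DMSO.

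SPI1 is the symbol of PU.1, the ETS-family transcription factor that directs the development of macrophages, granulocytes and B cells. The row of that name (ENSORLG00000015776) stood in the authors' deposited table at 43.1 FPKM in TCDD and 0 in DMSO, and it was not tested. It was the highest value of any member in TCDD. Its locus on chromosome 23, 17478479 to 17478767, is 289 bp long, against a median locus of 6361 bp over all genes. At that length, the TCDD value allows at most 12.4 fragments in every 1000000 mapped.

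The position of the SPI1 row differed from that of the gene named spi1 in a later assembly. In the authors' deposited table it lies between mybpc1 and spic, 2219 bp from spic, which encodes a relative of PU.1. In the RefSeq order of protein-coding genes in the later medaka assembly ASM223467v1, mybpc1 is followed directly by spic. The gene named spi1 lies elsewhere in that order, between mybpc3 and slc39a13. What the SPI1 row represents was not tested. The gene between mybpc3 and slc39a13 in the authors' deposited table is spi1b, whose symbol is not in the member set. That row had 6.67 FPKM in TCDD and 4.24 FPKM in DMSO. A further row, spi1a, was listed at 0 in TCDD and at 2.90 FPKM in DMSO, and spic at 1.68 FPKM in TCDD and 0 in DMSO. None of these rows was tested. The gene order of ptprc, abhd8 and dda1, by contrast, is the same in both sources, as is that of DCC and lyz. RefSeq held no gene under the symbols lcp1, coro1a, csf1ra or mpx, so the order around those members was not compared.

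Of the loci as short as the SPI1 row with a value above 0, most were listed at 0 in 1 of the groups. Of 672 genes with a locus of 300 bp or less, a limit chosen after the values were seen, 3.57% were at 0 in DMSO and at 20 FPKM or more in TCDD. That was 24 genes, and the mirrored pattern, at 20 FPKM or more in DMSO and at 0 in TCDD, was met by 20. Over all values, 54 of these short loci were at 0 in exactly 1 group, 27 were above 0 in both and 591 were at 0 in both. Among genes with a locus of 270 to 310 bp, the lowest value above 0 in TCDD was 6.39 FPKM. Short loci make up 3.28% of all genes and 35.8% of the 67 genes that were at 0 in DMSO and at 20 FPKM or more in TCDD.

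**Figure D3:**
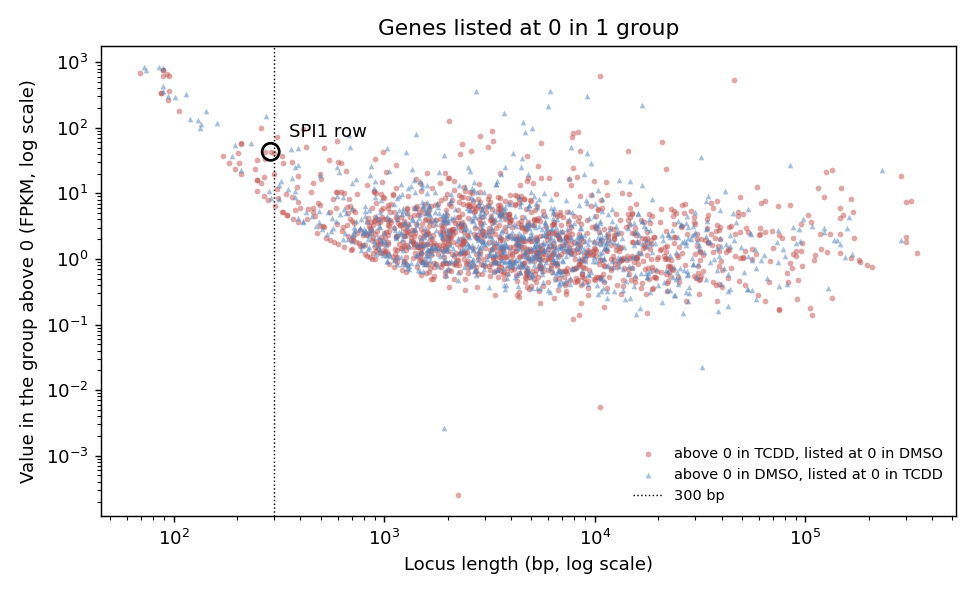
Value in the group above 0 (FPKM, log scale) against locus length (bp, log scale) for genes listed at 0 in the other group, as red circles where the value is in TCDD and blue triangles where it is in DMSO. The lowest values rise steeply as loci get shorter than 300 bp (dotted line), and the circled SPI1 row, at 289 bp and 43.1 FPKM, stands among other short loci of both colours.

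Of the cytoskeletal markers of leukocytes, coro1a was close to level between the groups and lcp1 was somewhat higher in TCDD. The gene coro1a (chromosome 8, 3648064 to 3653315) encodes coronin-1A, an actin regulator of blood cells, and had 15.4 FPKM in TCDD and 14.9 FPKM in DMSO. The gene lcp1 (chromosome 21, 16473537 to 16500375) encodes L-plastin, which bundles actin in leukocytes, and had 12.9 FPKM in TCDD and 7.99 FPKM in DMSO. Its locus is shared with an unnamed gene at 0.796 FPKM in TCDD and 0 in DMSO, so its reads are uncertain. Log2 fold changes were 0.05 for coro1a and 0.69 for lcp1, neither of them tested. The gene next to coro1a, the claudin gene cldni, lies 826 bp away and rose to 137 FPKM in TCDD, against 50.5 FPKM in DMSO (q = 0.0114 in the authors' deposited table).

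The members csf1ra, a macrophage marker, and lyz, which encodes a secreted antibacterial enzyme, gave low values. The gene csf1ra (chromosome 10, 12228797 to 12236586) encodes the receptor through which macrophages receive survival signals, and in zebrafish it also acts in yellow pigment cells of the skin. It had 6.66 FPKM in TCDD and 5.62 FPKM in DMSO, a log2 fold change of 0.24 with no test. The lysozyme gene lyz (chromosome 12, 30016848 to 30020507) was listed at 0 in both groups, as were 15.7% of all genes. Without read counts, no upper limit can be set for it.

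Summed over all 8 members the value was 161 FPKM in TCDD and 73.8 FPKM in DMSO, a ratio of 2.18. Without the SPI1 row the sums were 118 FPKM in TCDD and 73.8 FPKM in DMSO, a ratio of 1.60. For lcp1, coro1a and csf1ra together they were 34.98 FPKM in TCDD and 28.5 FPKM in DMSO, a ratio of 1.23. Among the 6 members above 0 in both groups, 5 were higher in TCDD and 1 lower, and the median log2 fold change was 0.47. Over all 15005 genes above 0 in both groups, 7713 were higher in TCDD and 7292 lower, with a median of 0.03. For the 8368 such genes with a mean of 5 to 40 FPKM, near the level of the members, the median was 0.04.

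Tested genes with the values most like those of a member were found by distance on the log2 scale over the 2 group values. Nearest to ptprc were dcaf12, with 31.2 FPKM in TCDD and 8.73 FPKM in DMSO, and the muscle receptor kinase gene musk, with 30.5 FPKM in TCDD and 9.06 FPKM in DMSO (q = 0.0183 and 0.00489 in the authors' deposited table). Next came tlcd1, which had 27.8 FPKM in TCDD and 9.64 FPKM in DMSO and did not pass (q = 0.527 in the authors' deposited table). Nearest to mpx (2 of 2) were plecb, YWHAE and yap1, all within 0.0414 of it and none past q 0.05. For the untested members above 0 in both groups, the nearest tested genes were 0.522 to 1.14 away for mpx (1 of 2), coro1a and lcp1, and 2.07 away for csf1ra. The SPI1 and lyz rows, listed at 0 in DMSO, have no such distance.

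A further 7 lists of leukocyte genes, which hold none of the members, showed where other blood cell genes stood. They had 122 rows in the authors' deposited table, of which 16 were tested. At q under 0.05, 6 of the 16 were called higher in TCDD and 0 lower. Like ptprc, 5 of the 16 reached 27.5 FPKM in TCDD alone (ccr9a, cyba, grna, ncf4 and xbp1), and they hold 3 of the 6 calls. Over all tested genes that reached that level in TCDD alone, 151 of 509 were called higher. Of the 11 that reached it in both groups, 3 were called higher (CTSL, CTSS (2 of 2) and lgmn), against 201 of 2412 over all such genes. Over all 122 rows, 72 were higher in TCDD, 35 lower and 15 at 0 in both groups. Over all 20459 genes, 8972 were higher in TCDD, 8285 lower and 3202 at 0 in both groups.

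Macrophage genes held 3 of these 6 calls. Of 29 rows, 3 were tested and all 3 were called higher, of which grna reached 27.5 FPKM in TCDD alone. In the authors' deposited table grna, which encodes the secreted growth factor progranulin, rose to 38.4 FPKM in TCDD, against 5.86 FPKM in DMSO, and the lysosomal protease gene CTSS (2 of 2) to 226 FPKM, against 71.2 FPKM in DMSO (both q = 0.00105). The asparagine-specific lysosomal protease gene lgmn rose to 188 FPKM in TCDD, against 61.1 FPKM in DMSO (q = 0.00105 in the authors' deposited table). These 3 genes are also made by cells outside the blood. Among the untested rows the transcription factor gene mafbb had 27.6 FPKM in TCDD and 9.96 FPKM in DMSO, whereas its relative mafba had 13.1 FPKM in TCDD and 21.7 FPKM in DMSO. The untested row MFAP4 (5 of 5) was lower in TCDD, with 8.07 FPKM against 21.0 FPKM in DMSO. MFAP4 (1 of 5) had 6.64 FPKM in TCDD and 0 in DMSO, and the remaining MFAP4 copies were at 0 in both groups. The complement genes c1qb and c1qc had 15.6 and 14.6 FPKM in TCDD and 3.28 and 2.51 FPKM in DMSO, and c1qa had 15.7 FPKM in TCDD and 13.1 FPKM in DMSO. The second colony-stimulating factor receptor gene, csf1rb, had 2.70 FPKM in TCDD and 3.91 FPKM in DMSO. The list summed to 656 FPKM in TCDD and 249 FPKM in DMSO, with 17 rows higher, 5 lower and 7 at 0 in both groups, AIF1 among the last. Over the 17 rows above 0 in both groups the median log2 fold change was 1.62.

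Granulocyte genes were mixed. Of 6 tested, 1 was called higher and 0 lower. It was cyba, which encodes the small membrane subunit of the phagocyte NADPH oxidase, with 53.7 FPKM in TCDD and 22.3 FPKM in DMSO (q = 0.0462 in the authors' deposited table). The oxidase regulator gene ncf4 had 40.8 FPKM in TCDD and 22.6 FPKM in DMSO (q = 0.139 in the authors' deposited table). The untested oxidase gene cybb had 1.71 FPKM in TCDD and 4.52 FPKM in DMSO. Of the other tested genes, cebpd was higher in TCDD, with 238 FPKM against 155 FPKM in DMSO (authors' q = 0.149). Lower in TCDD were cebpb, lect2l and nccrp1, with 70.6, 44.7 and 36.9 FPKM. Their DMSO values were 83.1, 51.4 and 44.5 FPKM (authors' q = 0.669, 0.855 and 0.67). Of the untested genes, the metalloprotease gene MMP25 had 11.8 FPKM in TCDD and 5.66 FPKM in DMSO, and the transcription factor gene cebpa 9.68 FPKM in TCDD and 20.3 FPKM in DMSO. In the list 10 rows were higher in TCDD, 8 lower and 1 at 0 in both groups. Summed over its 19 rows the list had 554 FPKM in TCDD and 449 FPKM in DMSO, and the median log2 fold change over 16 rows was 0.28.

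Pan-leukocyte signalling genes were low, and 1 of 19 was tested. That was arpc1b, a subunit gene of the actin-branching complex, with 59.2 FPKM in TCDD and 43.5 FPKM in DMSO (q = 0.388 in the authors' deposited table). The leukocyte integrin gene itgb2, which forms adhesion receptors, has 2 untested copies: itgb2 (1 of 2) had 18.7 FPKM in TCDD and 4.71 FPKM in DMSO, and itgb2 (2 of 2) had 21.3 FPKM in TCDD and 15.2 FPKM in DMSO. In this list 14 rows were higher in TCDD and 5 lower, and the sums were 153 FPKM in TCDD and 99.8 FPKM in DMSO.

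Of 3 tested antigen presentation genes, 1 was called higher, the lysosomal protease gene CTSL, with 1283 FPKM in TCDD and 405 FPKM in DMSO (q = 0.00105 in the authors' deposited table). Its DMSO value stood far above the 7.85 FPKM of ptprc, and the values do not tell which cells made it. The class II invariant chain gene cd74a had 90.7 FPKM in TCDD and 68.8 FPKM in DMSO, and the class I light chain gene b2m 1119 FPKM in TCDD and 668 FPKM in DMSO (q = 0.406 and 0.0922 in the authors' deposited table). The list summed to 2560 FPKM in TCDD and 1173 FPKM in DMSO, most of it CTSL and b2m. Of its 10 rows, 9 were higher in TCDD and 1 lower, with a median log2 fold change of 0.75 over 8 rows.

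Genes of the lymphocyte lists were mostly untested and differed in level. In the T and NK cell list, 10 of 23 rows were higher in TCDD, 8 lower and 5 at 0 in both groups. Over the 9 rows above 0 in both groups the median log2 fold change was 0.97. The 1 tested gene of that list, ccr9a, had 38.7 FPKM in TCDD and 1.93 FPKM in DMSO (q = 0.431 in the authors' deposited table). The transcription factor gene BCL11B (1 of 2) had 10.7 FPKM in TCDD and 16.9 FPKM in DMSO, and gata3 6.61 FPKM in TCDD and 11.8 FPKM in DMSO. The kinase gene lck had 0.745 FPKM in TCDD and 0 in DMSO, and the coreceptor gene cd8a 0 in TCDD and 1.63 FPKM in DMSO. In the B cell list, 7 of 10 rows were higher in TCDD and 1 lower, while pax5 and cd79b were listed at 0 in both groups. That list summed to 121 FPKM in TCDD and 45.7 FPKM in DMSO, with a median log2 fold change of 1.08 over 7 rows. The untested surface enzyme gene CD38 had 13.2 FPKM in TCDD and 4.04 FPKM in DMSO. The 1 tested B cell list gene, xbp1, rose to 80.5 FPKM in TCDD, against 25.0 FPKM in DMSO (q = 0.036 in the authors' deposited table), and it is also a general transcription factor of the unfolded protein response. The blood transcription factor list had a median log2 fold change of -0.19 over 7 rows, and its 1 tested gene, irf5, had 30.01 FPKM in TCDD and 44.5 FPKM in DMSO (q = 0.453 in the authors' deposited table).

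Markers of other cell types that come with blood or vessels did not share one direction with ptprc. Erythroid genes summed to 194 FPKM in TCDD and 353 FPKM in DMSO, and 1 of 2 tested was called lower. It was the ankyrin gene ank1, with 91.9 FPKM in TCDD and 240 FPKM in DMSO (q = 0.0372 in the authors' deposited table). ank1 had the largest value of this list in both groups and made up most of its DMSO sum. The other tested gene, sptb, had 33.3 FPKM in TCDD and 47.2 FPKM in DMSO (q = 0.22 in the authors' deposited table). The values do not tell which cells made ank1 and sptb, and no globin gene of the list had a row. The untested erythroid gene ALAS2 had 2.70 FPKM in TCDD and 3.86 FPKM in DMSO. Of the 10 erythroid rows, 7 were lower in TCDD and 3 higher, the untested genes fech, urod and epb41b. Endothelial genes summed to 71.9 FPKM in TCDD and 89.4 FPKM in DMSO, with 3 of 14 rows higher and 11 lower, none of them tested. Thrombocyte genes summed to 69.7 FPKM in TCDD and 68.2 FPKM in DMSO, most of it from 1 row, THBS1 (1 of 2). That row had 62.6 FPKM in TCDD and 60.7 FPKM in DMSO (q = 0.925 in the authors' deposited table). Of the 4 thrombocyte rows, 1 was higher in TCDD and 3 lower. In the osteoclast list, whose cells come from the macrophage lineage, 0 of 1 tested genes was called: ctsk, the bone-resorbing protease gene, had 126 FPKM in TCDD and 70.8 FPKM in DMSO (q = 0.0558 in the authors' deposited table). The tartrate-resistant phosphatase gene acp5a had 10.4 FPKM in TCDD and 20.1 FPKM in DMSO. The part of these cell types in the difference of ptprc was not tested.

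**Figure D4:**
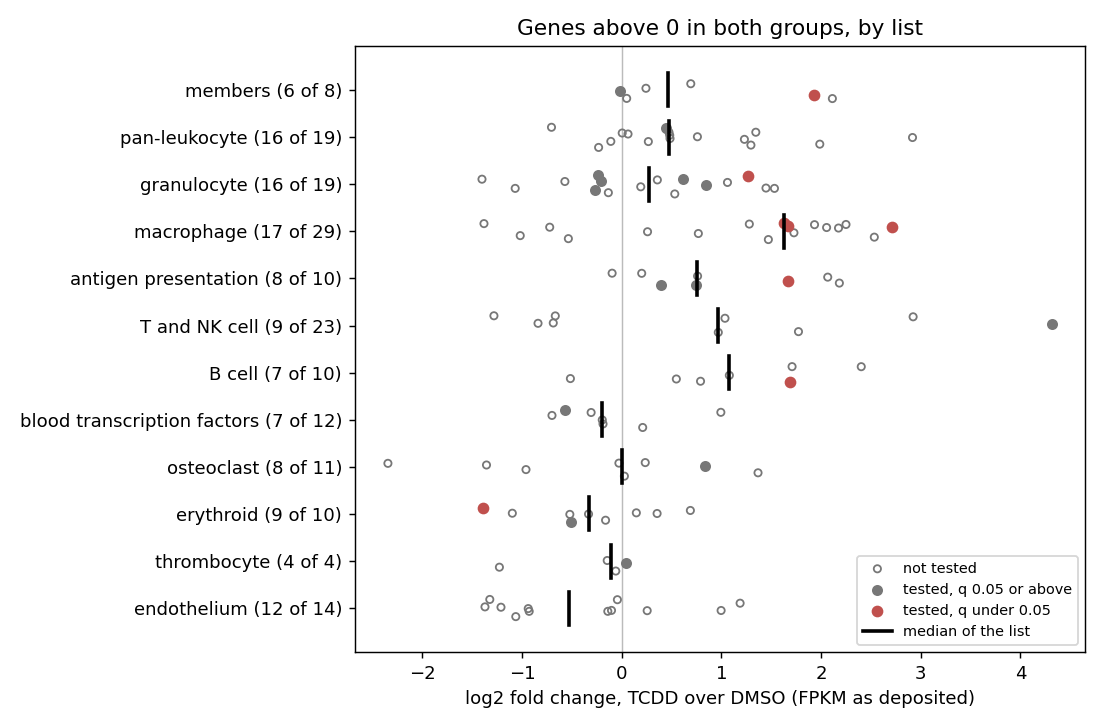
Log2 fold change of TCDD over DMSO (FPKM as deposited) for each gene above 0 in both groups, by list, with the number of rows shown of all rows in brackets; filled circles were tested by the authors, red ones had q under 0.05, and black bars are list medians. The macrophage median stands at 1.62, the B cell median at 1.08, the T and NK cell median at 0.97 and the antigen presentation median at 0.75. The members' median is 0.47, while the medians of blood transcription factor, erythroid, thrombocyte and endothelial genes lie below 0.

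The protein families of the members were also counted. Of 23 rows for receptor-type tyrosine phosphatases, whose symbols begin with ptpr, 11 were higher in TCDD and 12 lower, with a median log2 fold change of -0.13. ptprc was the 1 tested member of that family. PTPRD (1 of 2) had 22.0 FPKM in TCDD and 22.8 FPKM in DMSO, and ptprfb had 17.5 FPKM in TCDD and 17.1 FPKM in DMSO. Of 20 ETS-family rows, the family of SPI1, 15 were higher in TCDD and 5 lower, with a median log2 fold change of 0.68 over 17 rows. This count leaves out SPI1, spi1a and spi1b, whereas the ptpr count holds ptprc. Of those ETS-family rows 5 were tested and 1 was called higher, against 10.7% of all tested genes. It was etv4, with 112 FPKM in TCDD and 52.4 FPKM in DMSO (q = 0.0072 in the authors' deposited table). The matrix peroxidase gene PXDN, of the family of mpx, had 25.9 FPKM in TCDD and 34.8 FPKM in DMSO (q = 0.525 in the authors' deposited table).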

How the data were processed

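RNA from 6 pooled axial tissue samples, 3 per group, was sequenced on the Ion Torrent PGM, per the labels' protocols. Bowtie2 2.2.6 and DESeq2 are named in the submitters' processing notes without a role, while the 1 deposited table is laid out like Cuffdiff output, per the file headers. The program behind its values, the build and the annotation are therefore not settled. The authors deposited 1 value per gene and group, read as FPKM because the layout holds that unit and the values are not whole. The score printed for ptprc is a test statistic that the authors deposited. The p-values and q-values are the authors' deposited ones, and q equals Benjamini-Hochberg values over the 3286 tested genes.

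With no values per library, nothing was tested across samples here, and genes with the authors' q under 0.05 are called. Whether the pools were separate clutches is not stated, and p-values could reflect technical spread only. Log2 fold changes (TCDD over DMSO) were computed from FPKM without a pseudocount; scaling to equal totals would add 0.25 to each. The adjustment code was tested on simulated data. The members and lists were chosen with earlier results of these data known. All members were named. Other named genes were drawn from up to 4 tested genes by q and 3 untested genes by level in each list. The 3 genes nearest in pattern and neighbouring genes were drawn on as well. Not every gene selected in this way is named. Chosen after their values were seen were spi1a, spi1b, tissue markers, csf1rb, the c1q genes, lck, cd8a, pax5, cd79b and AIF1. The same holds for lect2l, nccrp1, cybb, ALAS2 and the MFAP4 copies other than MFAP4 (5 of 5). RefSeq (ASM223467v1) served for gene names and order. Python 3.11.15, pandas 2.3.3 and numpy 2.4.6 were used.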

Additional observations from a re-analysis of the deposited data

Results flagged for a closer look

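The SPI1 row was listed at 43.1 FPKM in TCDD and at 0 in DMSO, and mpx (1 of 2) had 20.8 FPKM in TCDD and 4.80 FPKM in DMSO. Both stand outside the authors' test, with a value of at least 20 FPKM and at least 4 times that of the DMSO group. Neither difference was tested.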

How the results depend on the processing

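The median log2 fold change of the 6 members above 0 in both groups was 0.47 as deposited. It was 0.72 with equal totals, 0.50 with totals taken without the 10 most abundant genes, 0.42 with the median of tested genes at 0, and 0.42 and 0.30 with pseudocounts of 1 and 5 FPKM. The log2 fold change of mpx (2 of 2), -0.02 as deposited, was 0.23 with equal totals and 0.0115 with totals taken without the 10 most abundant genes. ptprc kept its direction, at 1.44 to 2.17 over these settings. Its call held at q under 0.01 and by Benjamini-Yekutieli adjustment (adjusted p = 0.00908). Since its p is the smallest the authors' test gave, these stricter settings could drop ptprc only by dropping every call. With a mean of at least 20 FPKM required, 0 of 1 tested members was called, because ptprc has a mean of 18.9 FPKM and leaves the test. The other leukocyte lists had 6 higher calls at q under 0.05, 4 at 0.01, 7 at 0.1 and 6 with that mean. Adding both mpx copies, chosen after seeing the data, gave a log2 fold change of 0.50. No paired analysis was possible because each group has only 1 deposited value, and leaving out a replicate was not run for the same reason.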

Other observations

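The chemokine receptor gene ccr9a, of the T and NK cell list, had 38.7 FPKM in TCDD and 1.93 FPKM in DMSO. Its log2 fold change of 4.32 exceeded that of ptprc, yet q was 0.431 in the authors' deposited table. The nearest neighbour of ptprc, ABHD8 (2 of 2), lies 4053 bp away and had 9.79 FPKM in TCDD and 1.55 FPKM in DMSO. The next gene, dda1, had 28.9 FPKM in TCDD and 28.2 FPKM in DMSO. Neither neighbour was tested. The costimulatory receptor gene cd40 was listed at 13.8 FPKM in TCDD and at 0 in DMSO, also with no test.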
